A study of Homo sapiens with 8 samples.

Results

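hsa-miR-125a-5p, hsa-miR-125b-5p, hsa-miR-205-5p, hsa-miR-331-3p and hsa-miR-7-5p are microRNAs reported to repress receptors of the HER family, and they were taken by name from an array of 2006 human miRNAs. All 5 were on the array. BT474 and SKBR3 are human breast cancer cell lines that overexpress HER2, and the labels give BT474 as ER+, HER2+, PR+ and SKBR3 as ER-, HER2+, PR+, while the methods of the study give SKBR3 as PR-. Each line was grown with 6 μg/mL trastuzumab, a therapeutic antibody against HER2, or with phosphate-buffered saline (PBS) as its control, and total RNA was taken at 144 h from 2 biological replicates per line and treatment. Each line is a single established culture grown in a medium of its own, with bovine insulin for BT474, so the line and its medium cannot be told apart.

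The series labels 8 arrays, but the file of SKBR3 PBS replicate 1 was identical to that of BT474 PBS replicate 1 at all 62344 spots. The 7 distinct arrays were used, 4 of BT474 and 3 of SKBR3, and the PBS group of SKBR3 had 1 array. All arrays were on 1 slide, with trastuzumab in row 1 and PBS in row 2, so treatment and slide row cannot be told apart, and the lines lay in different columns. Detected miRNAs numbered 247 to 256 on the BT474 arrays and 201 to 218 on the SKBR3 arrays. Of the miR-200 family, which marks epithelial cells, miR-141-3p and miR-200c-3p were detected on all 7, and miR-200a-3p, miR-200b-3p and miR-429 on 4 of 4 BT474 arrays and 0 of 3 SKBR3 arrays. In total RNA of a culture, fewer cells holding a miRNA and less of it per cell cannot be told apart.

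The HER family holds the receptor tyrosine kinases EGFR, ERBB2 (HER2), ERBB3 and ERBB4, which pair with each other and signal through the PI3K/AKT and MAPK pathways. ERBB2 has no known ligand and is the target of trastuzumab, and ERBB3, whose kinase is weak, is its main partner in HER2+ cells. A miRNA is cut from a hairpin, and one arm of it guides the silencing complex to messenger RNAs that pair with its seed. miR-125a-5p and miR-125b-5p have been reported to repress ERBB2 and ERBB3, miR-205-5p ERBB3, miR-331-3p ERBB2, and miR-7-5p EGFR. The receptors themselves were not measured on these arrays.

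The mature sequences are shown because the 5 miRNAs fall into 4 seed groups. They are from RefSeq (GRCh38.p14), 5′ to 3′, with the seed, bases 2 to 8, in capitals. The last line is the other arm of the MIR7-1 hairpin, to which a result below refers.
hsa-miR-125a-5p: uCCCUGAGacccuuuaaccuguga
hsa-miR-125b-5p: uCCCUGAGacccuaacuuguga
hsa-miR-205-5p: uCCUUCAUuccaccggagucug
hsa-miR-331-3p: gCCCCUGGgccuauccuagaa
hsa-miR-7-5p: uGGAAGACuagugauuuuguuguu
hsa-miR-7-1-3p: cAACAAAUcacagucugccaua

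miR-125a-5p (24 bases) and miR-125b-5p (22 bases) shared their seed, their first 13 bases and their last 5, so probes for one could in part read the other. Of the array's names, 1687 were found among the RefSeq mature miRNAs, and hsa-miR-4319 was the only other with the seed of the miR-125 pair. It was detected on no array. No other matched name had the seed of miR-205-5p, miR-331-3p or miR-7-5p.

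By the RefSeq gene spans of GRCh38.p14, miR-125a-5p lies at chr19:51693268-51693291 (+) within SPACA6 and SPACA6-AS1. miR-125b-5p has 2 sources, MIR125B1 at chr11:122099809-122099830 (-) within the noncoding host gene MIR100HG and MIR125B2 at chr21:16590253-16590274 (+) within MIR99AHG. miR-205-5p lies at chr1:209432166-209432187 (+) within MIR205HG, and miR-331-3p at chr12:95308480-95308500 (+) within no other annotated gene span. miR-7-5p comes from 3 hairpins. These are MIR7-1 (mature at chr9:83969811-83969834, -) within HNRNPK, MIR7-3 (mature at chr19:4770700-4770723, +) within MIR7-3HG, and MIR7-2, whose hairpin is at chr15:88611825-88611934 within AEN. The array reads the mature sequence and does not separate the hairpins that share it.

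In BT474 cells, 1 of the 5 miRNAs was higher and 1 was lower under trastuzumab, and the other 3 were not called. The summed signal of miR-7-5p, the EGFR miRNA, fell 2.54-fold, and its own probes moved less than that. The summed signal of miR-205-5p, the ERBB3 miRNA, rose 2.15-fold, but its own probes moved less than that. In SKBR3 cells none was called, and miR-205-5p was not detected there. A miRNA was called within a line at an unadjusted limma p under 0.05 and a fold change above 2, the thresholds of the study. The 2 called of 5 in BT474 stand beside 14.0% of the 285 miRNAs tested there, and the 0 called of 4 in SKBR3 beside 11.5% of 227. Of those 4, 2 had an unadjusted limma p under 0.05, and neither was past 2-fold. Of the 227, 68 had such a p, 26 of them past 2-fold.

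The values behind this are the summed miRNA signals, which are background-subtracted intensities added over the probes of a miRNA. They are given below before normalization, and differences are given on the log2 scale after quantile normalization of the 7 arrays. Signals of different miRNAs come from different probes and are not compared with each other. With 1 or 2 arrays a treatment, signals that do not overlap say little alone. The share of all miRNAs without overlap was not counted. Without normalization the median miRNA tested was 0.22 higher under trastuzumab in BT474 and 0.38 higher in SKBR3, on the log2 scale.

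**Figure D1:**
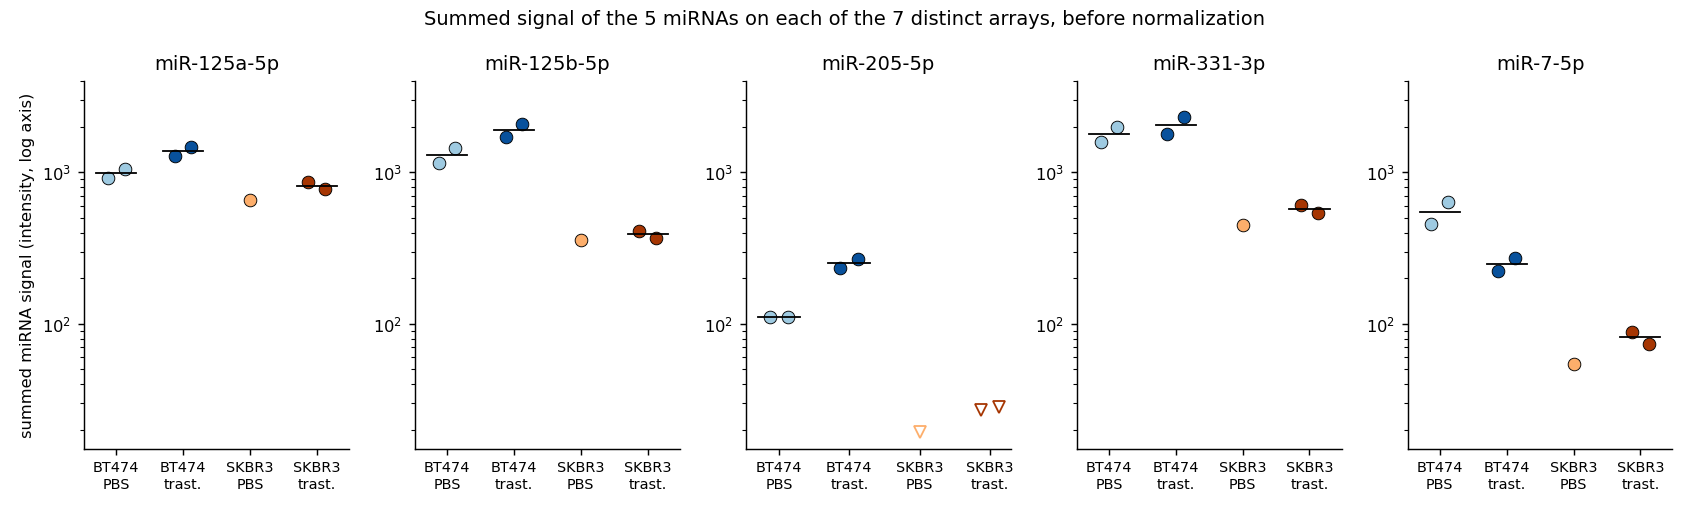
Summed signal of each miRNA (y axis, intensity before normalization, log scale) on the 7 distinct arrays, by line and treatment. Points are arrays, lines are means of 2 arrays, and open triangles mark the lowest detected signal of arrays on which the miRNA was not detected. In BT474, miR-7-5p lies between 224 and 273 under trastuzumab, below both PBS arrays, and miR-205-5p lies above both.

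miR-7-5p had summed signals of 454 and 633 on the BT474 PBS arrays and 224 and 273 on the BT474 trastuzumab arrays. The treatments did not overlap. After normalization the group means were 8.86 ± 0.13 (SD, n = 2) with PBS and 7.51 ± 0.02 (SD, n = 2) with trastuzumab, a log2 difference of -1.35 (SE 0.095), with a limma p of 0.000957 and an adjusted p of 0.0210. The SKBR3 signals were far lower, 54.0 with PBS and 88.6 and 74.0 with trastuzumab. The log2 difference there was 0.02 (SE 0.030, limma adjusted p = 0.727), and it ran from -0.84 to 0.58 over 15 alternative settings, 4 of which turned its direction.

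The change of miR-7-5p differed between the lines. The BT474 change minus the SKBR3 change was -1.36 on the log2 scale (SE 0.126, limma interaction, adjusted p = 0.00987). The interaction was called at an adjusted p under 0.05, as were 3 of the 5 miRNAs and 16.1% of the 305 tested. It kept its call when any array but the lone SKBR3 PBS array was left out (adjusted p 0.00288 to 0.0499). That call rests on 1 SKBR3 PBS array. With the shared file kept under both of its labels the interaction was -0.50 (adjusted p = 0.764), without normalization it was -1.70 (adjusted p = 0.0955), and with both of its probes added on all arrays it was -0.98 (adjusted p = 0.0595).

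miR-7-5p has 2 probes. The brighter gave 400 and 548 with PBS and 224 and 273 with trastuzumab in BT474, a ratio of the means of 0.525. The dimmer gave 54.2 and 85.3 with PBS and 36.9 and 38.5 with trastuzumab, a ratio of 0.540. Both probes were lower under trastuzumab on every array, by less than 2-fold in these ratios before normalization. The summed signal, however, adds a probe only where its total exceeds 3 times its error, a rule that held for every detected miRNA on each array within 1%. By this rule the dimmer probe counted on both PBS arrays and on neither trastuzumab array. With both probes added on all arrays the log2 difference was -1.10 (SE 0.130), and with the brighter alone -1.18 (SE 0.102). Both were past the 2-fold threshold and were called, with limma adjusted p of 0.0987 and 0.0607.

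The other arm of MIR7-1, hsa-miR-7-1-3p, also had lower signals under trastuzumab in BT474. It read 72.6 and 89.3 with PBS and 51.7 and 64.7 with trastuzumab. In SKBR3 it was not detected, but its normalized BT474 mean (5.44) lay below the lowest detected signal of the SKBR3 arrays (5.93). Its absence there thus does not by itself set a difference between the lines. The brighter of its 2 probes read 16.3, 15.8 and 11.6 on the SKBR3 arrays, at most 1.24 times its error. After normalization of the spots this probe stood 1.76 higher in BT474 on the log2 scale, which was not tested. The log2 difference of miR-7-1-3p between the BT474 treatments was -0.87 (SE 0.103, limma adjusted p = 0.0385), below the 2-fold threshold. The brighter probe carried the whole signal. With that probe alone the difference was -0.55 (limma adjusted p = 0.0878). miR-7-2-3p, the arm specific to MIR7-2, was detected on no array. hsa-miR-1179, of the MIR7-2 cluster, and hsa-miR-3529-3p, the exact reverse complement of miR-7-5p at that locus, were also detected on none.

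**Figure D2:**
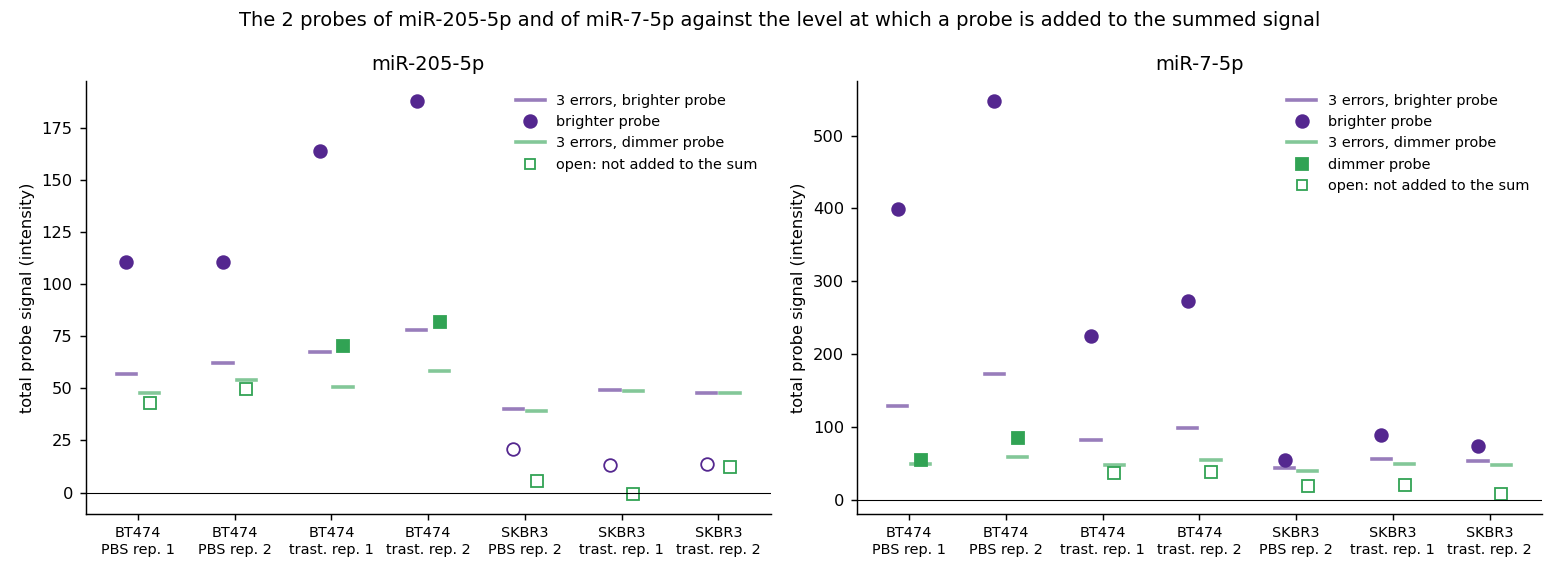
Total signal of the brighter (circles) and dimmer (squares) probe of miR-205-5p and miR-7-5p on each array (y axis, intensity). Horizontal bars mark 3 times the probe's error, and open symbols were not added to the summed signal. The dimmer miR-205-5p probe goes from 43.0 and 49.6 to 70.2 and 81.9 in BT474 and crosses its bar, and the dimmer miR-7-5p probe crosses it the other way.

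miR-205-5p, which is best known from epithelial cells, had summed signals of 110.5 and 110.7 on the BT474 PBS arrays and 234 and 269.9 on the BT474 trastuzumab arrays. The treatments did not overlap. The group means were 6.40 ± 0.13 (SD, n = 2) with PBS and 7.50 ± 0.03 (SD, n = 2) with trastuzumab after normalization, a log2 difference of 1.11 (SE 0.093), with a limma p of 0.00156 and an adjusted p of 0.0246.

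This change depends on how the probes were added. The brighter probe of miR-205-5p gave 110.5 and 110.7 with PBS and 164 and 188 with trastuzumab, a ratio of the means of 1.59. The dimmer gave 43.0 and 49.6 with PBS and 70.2 and 81.9 with trastuzumab, a ratio of 1.64. Both probes were higher under trastuzumab on every array, by less than 2-fold. The dimmer was left out of the sum on both PBS arrays, at 2.71 and 2.75 times its error, and added on both trastuzumab arrays, at 4.17 and 4.20 times. With both probes added everywhere the log2 difference was 0.50 (SE 0.121, limma adjusted p = 0.146), and with the brighter alone 0.44 (SE 0.139, limma adjusted p = 0.198), so the call was lost. Scaled to the 75th percentile in place of quantile normalization, the summed signal differed by 0.73 (limma adjusted p = 0.0581) and was not called either.

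**Figure D3:**
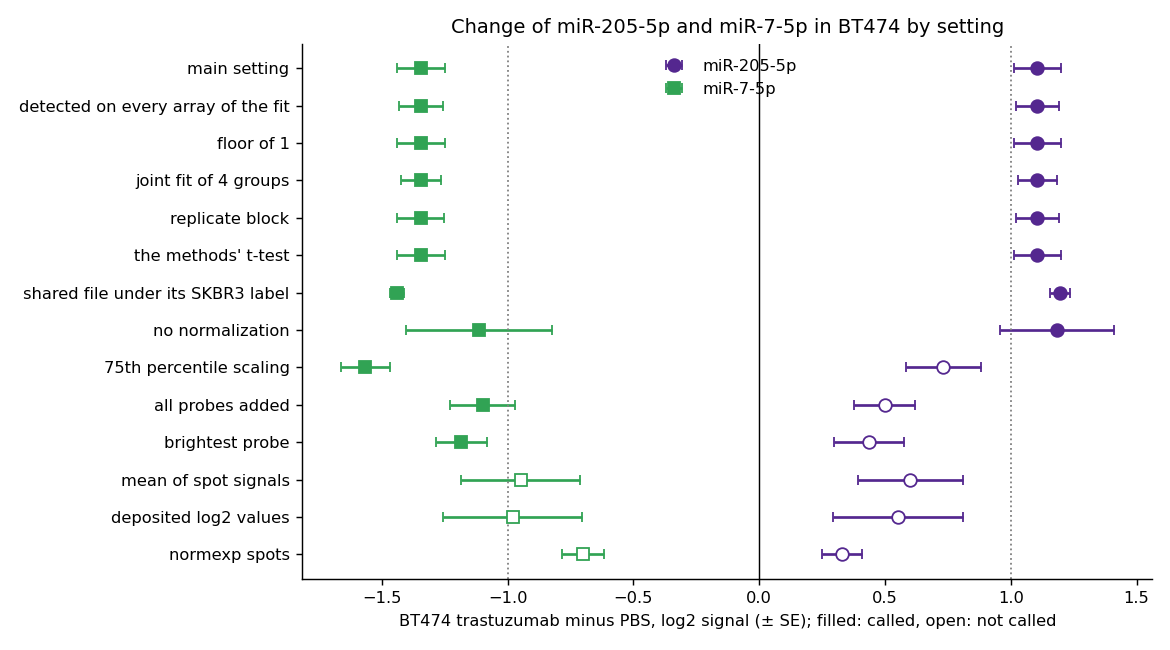
BT474 trastuzumab minus PBS on the log2 scale (x axis, ± SE) for miR-205-5p (circles) and miR-7-5p (squares) under 14 settings (y axis). Filled symbols were called and dotted lines mark 2-fold. miR-7-5p runs from -1.57 to -0.70 and miR-205-5p from 0.33 to 1.19, and neither changes direction.

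miR-205-5p was detected on 4 of 4 BT474 arrays and 0 of 3 SKBR3 arrays. Its SKBR3 probes reached 20.9 at most, 1.57 times their error. After normalization its mean BT474 level stood 2.03-fold above the lowest detected signal of the SKBR3 arrays (6.95 against 5.93 on the log2 scale). This limit was not itself tested, and it is not a strict bound. A probe is added only above 3 times its own error, and the brighter probe had errors of 13.3, 16.3 and 16.0 on the SKBR3 arrays. The lowest detected signals there were 19.3, 26.8 and 28.3. The BT474 mean also holds the trastuzumab arrays, on which the dimmer probe was added. The limma fit, with the SKBR3 arrays at the floor of 10, gave a log2 difference of 3.63 (SE 0.061, adjusted p = 1.6e-05). No change could be measured in SKBR3, so its interaction term of 1.11 (SE 0.121, limma adjusted p = 0.0135) holds the BT474 change alone. The other arm, miR-205-3p, was detected on no array.

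miR-125a-5p gave summed signals of 909.9 and 1054 with PBS and 1284 and 1476 with trastuzumab in BT474, and of 661 with PBS and 864 and 771 with trastuzumab in SKBR3. Before normalization the trastuzumab arrays lay above the PBS arrays of their line, without overlap. After it the differences were small, 0.17 in BT474 (SE 0.071, limma adjusted p = 0.217) and -0.20 in SKBR3 (SE 0.035, limma adjusted p = 0.166). The SKBR3 value was 0.13 with 75th percentile scaling and 0.30 without normalization, settings in which the median of all miRNAs tested there moved from -0.09 to 0.21 and 0.38. Relative to that median miR-125a-5p stood at -0.11, and at -0.08 in either of the other scalings.

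miR-125b-5p gave 1152 and 1457 with PBS and 1712 and 2085 with trastuzumab in BT474, and 357 with PBS and 412 and 368 with trastuzumab in SKBR3. The BT474 treatments did not overlap, and the SKBR3 signals lay close together. The normalized difference was 0.21 in BT474 (SE 0.064, limma adjusted p = 0.136) and -0.37 in SKBR3 (SE 0.053, limma adjusted p = 0.151), and the latter was 0.13 without normalization, or -0.26 relative to the median of all miRNAs. The interaction was 0.58 (SE 0.088, limma adjusted p = 0.0290), in which BT474 had the higher change. It was called in 7 of 17 alternative settings. Among the 10 without a call were 75th percentile scaling (0.14, adjusted p = 0.479), no normalization (0.42, adjusted p = 0.669), the shared file under both of its labels (0.89, adjusted p = 0.523) and under its SKBR3 label (0.86, adjusted p = 0.789), the mean of spot signals (0.52, adjusted p = 0.279), normexp (0.45, adjusted p = 0.0531) and the deposited values (0.64, adjusted p = 0.687). It was also not called without BT474 trastuzumab replicate 1 (0.58, adjusted p = 0.0642), SKBR3 trastuzumab replicate 1 (0.60, adjusted p = 0.0566) or SKBR3 trastuzumab replicate 2 (0.54, adjusted p = 0.0529).

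miR-331-3p gave 1584 and 1977 with PBS and 1787 and 2319.8 with trastuzumab in BT474, and 450.2 with PBS and 607 and 541 with trastuzumab in SKBR3. The BT474 treatments overlapped, and the SKBR3 PBS array lay below both trastuzumab arrays. The normalized difference was -0.07 in BT474 (SE 0.054, limma adjusted p = 0.463), and 0.20 without normalization, or -0.017 relative to the median of all miRNAs. In SKBR3 it was -0.33 (SE 0.026, limma adjusted p = 0.108), and 0.17 with 75th percentile scaling and 0.35 without normalization. Relative to the median of all miRNAs it stood at -0.24, and at -0.036 in either of the other scalings. Its interaction of 0.26 (limma adjusted p = 0.0855) was not called, and neither was that of miR-125a-5p at 0.38 (limma adjusted p = 0.0855).

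**Figure D4:**
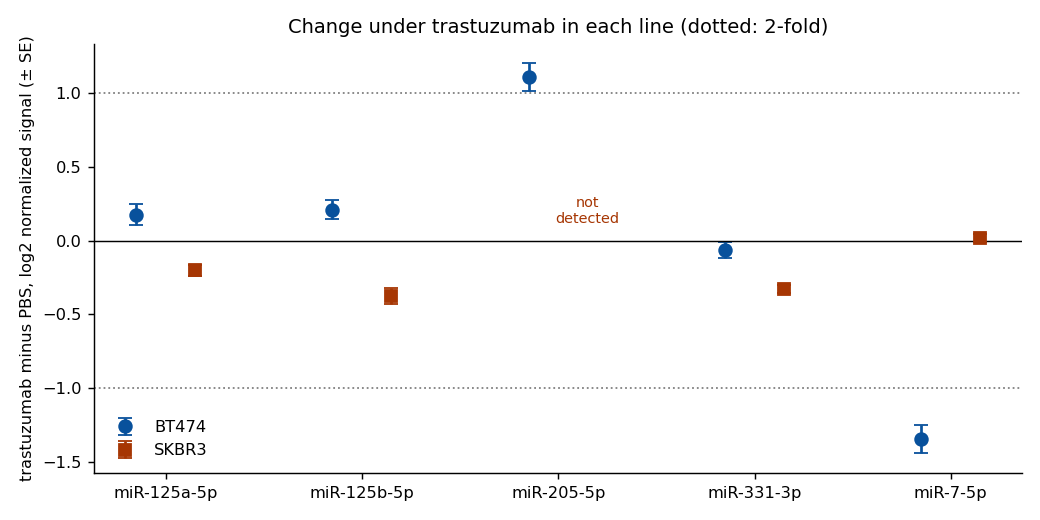
Trastuzumab minus PBS on the log2 scale of the normalized summed signal (y axis, ± SE) for each miRNA in BT474 (circles) and SKBR3 (squares). Dotted lines mark 2-fold. miR-205-5p at 1.11 and miR-7-5p at -1.35 in BT474 lie past them, and the SKBR3 values lie between -0.37 and 0.02.

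Between the lines, 4 of the 5 miRNAs were higher in BT474 and 1, miR-125a-5p, was higher in SKBR3 after quantile normalization. All 5 were called at an adjusted p under 0.05, beside 68.5% of the 305 miRNAs tested, so a call between these lines was the rule. miR-7-5p was 2.20-fold higher in BT474 (log2 difference 1.14, SE 0.063, limma adjusted p = 0.000353). By treatment, the BT474 minus SKBR3 difference of miR-7-5p was 1.82 with PBS and 0.46 with trastuzumab. miR-125b-5p was 1.94-fold higher in BT474 (0.95, SE 0.044, limma adjusted p = 0.000218), with 0.66 under PBS and 1.24 under trastuzumab. miR-331-3p was 1.64-fold higher (0.72, SE 0.032, limma adjusted p = 0.000204), with 0.59 and 0.85.

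miR-125a-5p differed by -0.61 between the lines (SE 0.046, limma adjusted p = 0.000818), that is 1.53-fold higher in SKBR3, but by -0.25 with 75th percentile scaling (adjusted p = 0.0518) and by 0.66 without normalization. SKBR3 arrays were dimmer as a whole, and leaving out the normalization moved the median of all miRNAs tested by 0.86 toward BT474. Relative to that median miR-125a-5p stood at -0.20. The pair that shares a seed thus had differences of opposite sign after quantile normalization and with 75th percentile scaling. Without normalization both differences were above 0. Relative to the median they stood at -0.20 and 1.21 there, again of opposite sign. In the ranking of normalized levels, SKBR3 PBS (10.52, 1 array) and SKBR3 trastuzumab (10.32 ± 0.03, SD, n = 2) were above BT474 trastuzumab (9.90 ± 0.08, SD, n = 2) and BT474 PBS (9.72 ± 0.03, SD, n = 2) for miR-125a-5p. For miR-125b-5p the order was BT474 trastuzumab (10.37 ± 0.03, SD, n = 2), BT474 PBS (10.16 ± 0.05, SD, n = 2), SKBR3 PBS (9.50, 1 array) and SKBR3 trastuzumab (9.12 ± 0.05, SD, n = 2). Neighbours of the same line in these orders were not called as different.

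The shared file was also used under both labels, or under its SKBR3 label alone. None of the 5 was then called between the lines by limma at an adjusted p under 0.05. In either case 3 of the 5 had an unadjusted limma p under 0.05. Over all 305 miRNAs tested, 151 did so with both labels and 83 with the SKBR3 label alone. The differences of the 5 then ran from -0.43 for miR-125a-5p to 2.85 for miR-205-5p and kept their directions.

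**Figure D5:**
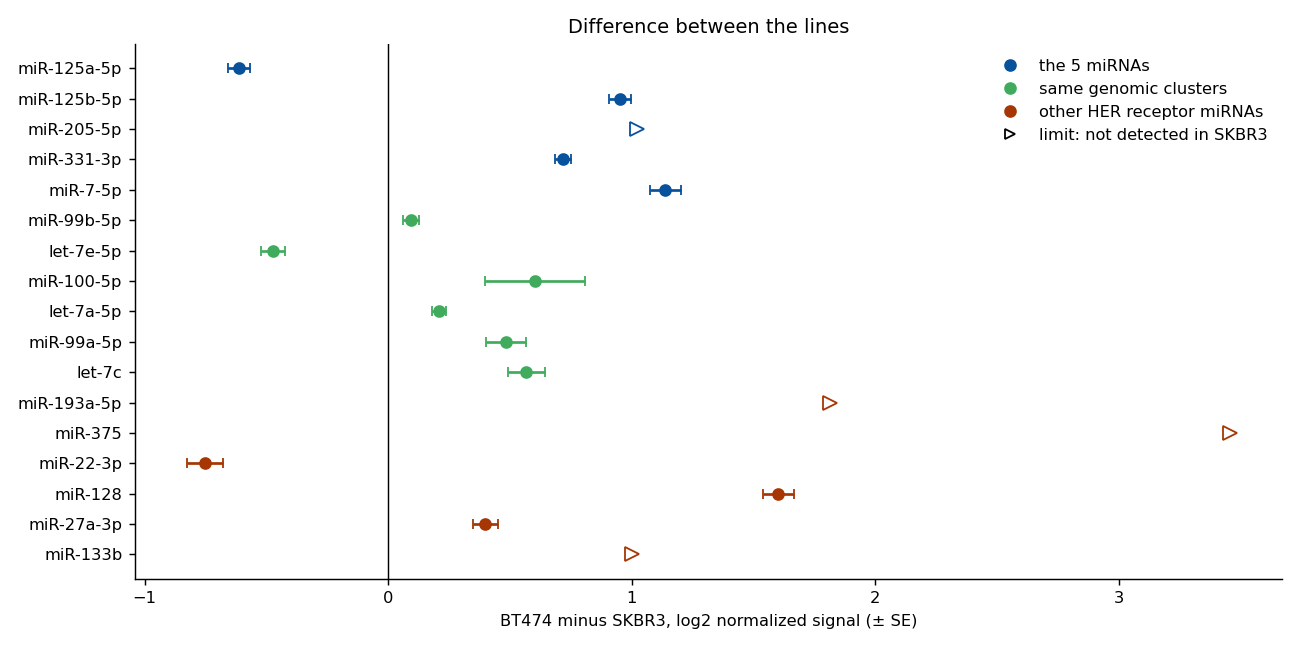
BT474 minus SKBR3 on the log2 scale of the normalized summed signal (x axis, ± SE) for the detected miRNAs of each list (y axis). Open triangles set miRNAs not detected in SKBR3 against the lowest detected signals there, which is not a strict limit. miR-125a-5p (-0.61), let-7e-5p (-0.47) and miR-22-3p (-0.75) lie left of 0, and without normalization, where the median of all miRNAs is 0.86, they are at 0.66, 0.66 and 0.55, below that median by 0.20, 0.20 and 0.31.

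The genomic clusters of these miRNAs hold 8 further miRNAs, of which 6 were detected on all 7 arrays. These were miR-99b-5p and let-7e-5p beside miR-125a, miR-100-5p and let-7a-5p beside miR-125b-1, and miR-99a-5p and let-7c beside miR-125b-2. None was called under trastuzumab in either line by limma, with 3 of 6 at an unadjusted p under 0.05 in BT474, beside 104 of all 285, and 1 of 6 in SKBR3, beside 68 of 227. Their median log2 change was 0.19 in BT474 beside 0.0049 over all miRNAs tested, and -0.08 in SKBR3 beside -0.09. Between the lines 4 of the 6 were called, 3 higher in BT474 and 1 higher in SKBR3, beside the 68.5% of all miRNAs. let-7e-5p stood like its neighbour miR-125a-5p, at -0.47 (SE 0.049, limma adjusted p = 0.00215), and was 0.66 without normalization, or -0.20 relative to the median of all miRNAs. miR-99b-5p, of the same cluster, stood at 0.09 (SE 0.032, limma adjusted p = 0.0643). let-7c (0.57, SE 0.076, limma adjusted p = 0.00441) and miR-99a-5p (0.48, SE 0.081, limma adjusted p = 0.00889) were higher in BT474, as miR-125b-5p was. let-7a-5p stood at 0.21 and turned to -0.17 with 75th percentile scaling.

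Of the 7 other arms of the hairpins, 5 were detected on no array. Besides miR-7-1-3p, miR-125a-3p was read at 36.3 on BT474 trastuzumab replicate 1 and at 27.4, 44.5 and 44.8 on the 3 SKBR3 arrays. It was thus detected on 1 of 4 BT474 arrays and 3 of 3 SKBR3 arrays. These counts lie at the cut of 3 errors. The same probe read 24.6, 30.5 and 35.5 on the other BT474 arrays, at 2.36, 2.55 and 2.88 times its error. On the SKBR3 PBS array it passed at 3.0005 times, so the signals of the lines overlapped before normalization. After normalization of the spots the probe stood at -0.86 (BT474 minus SKBR3, log2), which was not tested.

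Another 13 miRNAs reported to repress a HER receptor were listed for comparison. On no array were 7 of them detected, namely miR-559, miR-548d-3p and miR-199b-5p (ERBB2), miR-143-3p and miR-450b-3p (ERBB3), and miR-146a-5p and miR-133a (EGFR). miR-193a-5p and miR-375 (ERBB2) and miR-133b (EGFR) were detected in BT474 only. Their BT474 levels stood 3.51-fold, 10.98-fold and 2.00-fold above the lowest detected signals of the SKBR3 arrays, which is not a strict limit. miR-22-3p (ERBB3), miR-128 and miR-27a-3p (EGFR) were detected on all 7 arrays. None of the 6 tested in BT474 or the 3 tested in SKBR3 was called under trastuzumab, with a median log2 change of 0.22 in BT474, beside 0.0049 over all miRNAs tested, and -0.08 in SKBR3, beside -0.09. In BT474, 2 of the 6 had an unadjusted limma p under 0.05 besides miR-133b, beside 104 of all 285. They were miR-27a-3p at 0.34 (SE 0.066, adjusted p = 0.0813) and miR-375 at 0.40 (SE 0.059, adjusted p = 0.0507). The largest SKBR3 change of the 3 was that of miR-128, at -0.68 (SE 0.079), against 1 PBS array.

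miR-133b was just short of the 2-fold threshold in BT474, with signals of 104 and 122 with PBS and 222 and 254 with trastuzumab. The treatments did not overlap, and the log2 difference was 0.98 (SE 0.079, limma adjusted p = 0.0246). The same single probe was added on all 4 BT474 arrays. Between the lines miR-128 was 3.03-fold higher in BT474 (log2 difference 1.60, SE 0.064, limma adjusted p = 0.000148), and miR-22-3p stood at -0.75 (SE 0.074, limma adjusted p = 0.00185), and at 0.55 without normalization, or -0.31 relative to the median of all miRNAs.

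The miRNAs most like each of the 5 were taken by the smallest root mean square difference of log2 levels over the 7 arrays, each miRNA centred on its mean, among 235 others detected on at least 4 arrays. Nearest to miR-205-5p was miR-133b (0.0858), before miR-215 (0.217) and miR-1 (0.246), all detected in BT474 and on no SKBR3 array. All were set to the same floor on the SKBR3 arrays, so they agree there by construction. In BT474 the miR-205-5p levels include its dimmer probe on the trastuzumab arrays only, while miR-133b kept the same single probe. Nearest to miR-125a-5p were miR-320a (0.0738), miR-4306 (0.0855) and miR-200c-3p (0.0883), and nearest to miR-125b-5p were miR-15a-5p (0.137), miR-30d-5p (0.159) and miR-148a-3p (0.160). For miR-331-3p they were miR-148b-3p (0.0907), miR-181b-5p (0.113) and miR-15a-5p (0.130). No miRNA came as close to miR-7-5p, for which miR-4530 (0.421), miR-183-5p (0.487) and miR-103a-3p (0.509) were nearest. The difference was not scaled to the range of a miRNA, so a wider range can give a larger value. miR-7-5p ran from 7.04 to 8.95 over the 7 arrays, and miR-125a-5p from 9.7 to 10.52. The nearest patterns are descriptions over 7 arrays that share 2 lines and 1 slide.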

How the data were processed

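Cy3-labelled total RNA was read on one-colour arrays designed from miRBase release 19. The authors deposited scanner intensities written by Feature Extraction 11.5.1.1, without normalization between arrays, and log2 values per probe, which their methods call quantile normalized. Arrays carry no read depth, and the number of arrays limits the precision.

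Summed signals of the 7 distinct arrays were quantile normalized, set to at least 10 and log2 transformed. Linear models (lmFit, eBayes) were fitted in R 4.3.3 with limma 3.58.1, within each line and, for the difference between lines and the interaction, over 4 groups in 1 fit. Calls within a line needed an unadjusted p under 0.05 and a fold above 2, other calls a Benjamini-Hochberg adjusted p under 0.05. A miRNA was left untested where no array of the fit exceeded the floor. The lone SKBR3 PBS array was assumed to vary like the others. A limit is the mean of the brighter line against, per array of the dimmer, its own value or the array's lowest detected signal, whichever was higher. It is not a strict bound, because a probe counts only above 3 times its own error. Code was tested on simulated data. The members, lists and tests were chosen with earlier results of these data known. The text names the 5 members, the other arms, the cluster partners, a list of other HER receptor miRNAs and the 3 nearest patterns of each member. Alternatives covered scaling, floor, filter, probe summary, the shared file and single arrays left out. Adding all probes and the brightest probe were chosen after seeing the data. Python 3.11.15 with pandas 2.3.3 and matplotlib 3.10.9 produced the tables and plots. miRNA sequences and gene spans came from RefSeq tables (GRCh38.p14). Gene spans do not separate exons from introns.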

Additional observations from a re-analysis of the deposited data

Results flagged for a closer look

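The difference of the trastuzumab change between the lines was called for 2 of the 4 miRNAs detected in both. By the same limma interaction term 16.1% of all 305 miRNAs tested were called. For miR-7-5p the BT474 change minus the SKBR3 change was -1.36 on the log2 scale (adjusted p = 0.00987). For miR-125b-5p it was 0.58 (adjusted p = 0.0290). Both rest on 1 SKBR3 PBS array, and neither was called with the shared file under both of its labels (adjusted p 0.764 and 0.523). Of 17 alternative settings, miR-7-5p kept its call in 11 and miR-125b-5p in 7.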

How the results depend on the processing

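Scaling set the sign of small changes. Against quantile normalization, 75th percentile scaling moved the median log2 difference of all miRNAs to -0.22 in BT474, 0.21 in SKBR3, 0.27 between the lines and -0.41 in the interaction, and no normalization moved it to 0.22, 0.38, 0.86 and -0.09. Calls in BT474 split into 20 higher and 20 lower, 13 and 28 with 75th percentile scaling and 26 and 13 without normalization. Between the lines the split was 102 and 107, 122 and 91, and 165 and 21. In SKBR3 18 were higher and 8 lower, 31 and 8 with 75th percentile scaling and 31 and 6 without normalization, and in the interaction 30 and 19, 16 and 35 with 75th percentile scaling and 11 and 14 without normalization.

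In BT474 the 40 called miRNAs became 20 with detection on every array, 140 with the mean of spot signals, 2 with normexp, 85 with the deposited log2 values, 26 by the methods' t-test and 64 with all probes added. With single arrays left out they were 34 to 44. Of the 5 miRNAs described, 2 were called, but 1 (miR-7-5p) with 75th percentile scaling, with all probes added and with the brightest probe, and 0 with the mean of spot signals, normexp and the deposited values. With normexp both miR-205-5p (0.33) and miR-7-5p (-0.70) had a limma adjusted p under 0.05 (0.0259 and 0.000286) and missed the 2-fold threshold. In SKBR3 the 26 called became 11 with detection on every array, 14 with the shared file under both labels, 14 with it under its SKBR3 label, 193 with the mean of spot signals, 13 with normexp, 119 with the deposited values, 78 with all probes added and 52 with the brightest probe, and 27 to 35 with single arrays left out. Between the lines the 209 called became 6 with the shared file under both labels, 10 with it under its SKBR3 label, 342 with the mean of spot signals, 408 with normexp, 387 with all probes added and 365 with the brightest probe, and 187 to 206 with single arrays left out. The 5 described became 0 in both uses of the shared file. In the interaction the 49 called became 25 without normalization, 23 with detection on every array, 5 and 1 in the uses of the shared file, 76 with the mean of spot signals, 88 with normexp, 109 with all probes added, 124 with the brightest probe and 0 with the deposited values (limma, 175 at an unadjusted p under 0.05), and 29 to 74 with single arrays left out. The 3 described became 1 with 75th percentile scaling, without normalization and with all probes added, 0 in both uses of the shared file, with the mean of spot signals and with the deposited values, and 1 to 4 with single arrays left out.

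Directions turned as follows. In BT474, miR-331-3p was at 0.20 without normalization. In SKBR3, miR-125a-5p was at 0.13 with 75th percentile scaling, 0.30 without normalization, and 0.20 and 0.19 in the uses of the shared file. There miR-125b-5p was at 0.13 without normalization, miR-331-3p at 0.17 with 75th percentile scaling and 0.35 without normalization, and miR-7-5p at -0.84 in both uses of the shared file, -0.052 with the deposited values and -0.11 with all probes added. Between the lines miR-125a-5p was at 0.66 without normalization. In the interaction miR-125a-5p was at -0.086 with 75th percentile scaling and -0.021 with the shared file under both labels, and miR-331-3p at -0.42 with 75th percentile scaling, -0.15 without normalization, -0.023 with the deposited values and -0.014 with the brightest probe. In BT474, in SKBR3 and between the lines, the values of miR-125a-5p, miR-125b-5p and miR-331-3p that turned with a scaling stayed below the median of all miRNAs in that scaling. The cause of the other shifts was not tested.

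Labels number the replicates alike in both treatments. The deviations of same-numbered BT474 arrays correlated at 0.209 over 221 miRNAs, with only 2 pairs, too few to show whether the replicates were paired. Same-numbered BT474 arrays also shared a slide column, so replicate number and column cannot be told apart. With the replicate block 32 miRNAs were called in BT474 (0 at an adjusted p under 0.05, 73 at an unadjusted one), with 2 of the 5 described among them. SKBR3 has 1 distinct PBS array and took no block. The deposited values were not compared between lines. Leaving out SKBR3 PBS replicate 2 leaves no PBS group there and gave no value. With 2 arrays a group, or 1 for SKBR3 PBS, and signals close to background for miR-205-5p and SKBR3 miR-7-5p, small changes were not measurable.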

Other observations

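The probe rule described for miR-205-5p and miR-7-5p reached other miRNAs. Of 221 miRNAs detected on all 4 BT474 arrays, 7 had more probes added on both trastuzumab arrays than on either PBS array, and 5 had fewer. Among the 20 of these 221 that were called in BT474, 8 had such a difference in the number of probes added. This was counted after the values of both miRNAs were seen.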
